A study of Mus musculus with 6 samples.

Results

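The 29 genes described here encode the enzymes that make cholesterol and fatty acids in mouse cells, the regulators that switch those enzymes on, and 3 genes of sterol transport, efflux and oxysterol synthesis. They were chosen by gene symbol from a list written for this purpose and were all found among the 39179 genes of the table, Msmo1 under its older symbol Sc4mol. The cells were B16F10.9, a melanoma line of the C57BL/6 strain. Of 6 RNA-seq libraries, 3 came from cells cultured in recombinant mouse interferon-gamma (IFN-gamma), 50 µg/ml as labelled, for 24 h, and 3 from untreated cells given no agent. The comparison asks which genes differ in expression between these groups. Each gene had 1 value per group in FPKM, fragments scaled to transcript length and library size, so levels have no SD here. A gene is said to have risen or fallen where the authors' deposited table gives a q-value below 0.05, and otherwise to be not called, which does not show that its level was the same in both groups.

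Cholesterol is built from acetyl-CoA through mevalonate and farnesyl diphosphate to squalene, which is closed to lanosterol and trimmed to cholesterol in the endoplasmic reticulum. Fatty acids come from the same acetyl-CoA, which Acly and Acss2 supply, Acaca carboxylates and Fasn assembles. Most of these genes are activated by the SREBP transcription factors, which are held in the endoplasmic reticulum by Insig proteins when sterols are plentiful and are escorted to the Golgi for cleavage by Scap when sterols run low. Surplus sterol and oxysterols act on the LXR receptors, which activate exporters such as Abca1.

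The treatment was visible in a direct target. Irf1 stood at 482 FPKM in IFN-gamma-treated cells and 10.2 FPKM in untreated cells. The 7 melanoma markers ranged from 105 to 4045 FPKM in treated cells and from 78.7 to 2871 FPKM in untreated cells. The 15 markers of blood, fibroblast, endothelial and epithelial cells summed to 0.485 FPKM in treated cells and 1.53 FPKM in untreated cells, and 4 of them were listed at 0 in treated cells. Ratios of all tested genes followed transcript length, with a median log2 ratio (IFN-gamma over untreated) of -0.43 for transcripts of 566 to 1059 nt and 0.57 for those above 6056 nt. The part of this trend in the changes below was not tested; where it moves the log2 ratio of a called gene by more than 1.5 times, the ratio with the trend removed is given beside it.

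The 300-base windows around the starts of 4 genes are shown because these genes belong to the same SREBP-controlled programme and yet rose (Hmgcs1 and Hsd17b7) or fell (Insig1 and Mvk) under IFN-gamma; they were picked with these changes known. The RefSeq start of Hmgcs1 lies just upstream of the gene's start in the table. The sequences are from RefSeq on build GRCm38.p6, run 5′ to 3′ on the strand of the gene, and span 250 bases before to 50 after the annotated start. Capitals mark every match, on either strand, to the motifs listed after them.
Hmgcs1 (chr13:119690101-119690400, plus strand): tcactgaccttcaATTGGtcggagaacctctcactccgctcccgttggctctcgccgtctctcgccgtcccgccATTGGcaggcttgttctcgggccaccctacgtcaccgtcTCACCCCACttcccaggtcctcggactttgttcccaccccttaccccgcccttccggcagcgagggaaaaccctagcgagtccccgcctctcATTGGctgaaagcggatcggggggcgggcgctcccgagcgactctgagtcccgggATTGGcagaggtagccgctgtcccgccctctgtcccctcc
Hsd17b7 (chr1:169969156-169969455, minus strand): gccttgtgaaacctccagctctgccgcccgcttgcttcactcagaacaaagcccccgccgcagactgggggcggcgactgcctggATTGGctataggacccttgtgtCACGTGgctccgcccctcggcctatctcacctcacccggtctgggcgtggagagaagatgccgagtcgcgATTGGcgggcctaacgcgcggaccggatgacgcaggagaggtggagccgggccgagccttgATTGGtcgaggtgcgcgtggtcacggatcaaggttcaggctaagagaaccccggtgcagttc
Insig1 (chr5:28071162-28071461, plus strand): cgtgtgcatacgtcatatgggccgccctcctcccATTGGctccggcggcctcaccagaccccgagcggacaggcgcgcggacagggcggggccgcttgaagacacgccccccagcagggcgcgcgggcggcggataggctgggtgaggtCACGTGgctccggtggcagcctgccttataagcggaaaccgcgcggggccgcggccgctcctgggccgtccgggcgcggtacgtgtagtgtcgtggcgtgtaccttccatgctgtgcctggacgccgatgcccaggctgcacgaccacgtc
Mvk (chr5:114444019-114444318, plus strand): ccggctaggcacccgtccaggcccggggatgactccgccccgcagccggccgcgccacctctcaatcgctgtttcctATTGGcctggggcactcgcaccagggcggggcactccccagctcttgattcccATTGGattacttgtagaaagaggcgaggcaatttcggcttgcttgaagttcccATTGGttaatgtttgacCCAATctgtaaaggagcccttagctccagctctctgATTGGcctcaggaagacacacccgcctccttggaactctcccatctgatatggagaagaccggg

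The motifs searched were a sterol regulatory element (TCACNCCAC), the E-box (CACGTG), which SREBP proteins can also bind, the CCAAT box (CCAAT), the site of the SREBP partner NF-Y, and 2 motifs of the interferon response, GAS (TTCNNNGAA) and the ISRE core (GAAANNGAA). CCAAT boxes stand in all 4 windows, and the Hsd17b7 and Insig1 windows hold the same kinds of motif. The Hmgcs1 window holds 1 sterol element, which begins 137 bases before the start, and 4 CCAAT boxes. In Hsd17b7 an E-box lies 143 bases before the start among 3 CCAAT boxes, and in Insig1 an E-box lies 101 bases before the start with 1 CCAAT box. The Mvk window holds 5 CCAAT boxes and neither of the other sterol-related motifs. Windows were taken for 23 of the 29 genes, 29 windows in all. Windows on chromosome 18, where Stard4 lies, were left out for these genes but kept among all windows. CCAAT boxes stood in 65.5% of these and in 37.4% of all 32851 windows of the table, and E-boxes in 24.1% and 7.15%. The sterol element stood in 3.45% of the windows of these genes (1 window) and in 1.24% of all windows. GAS and ISRE letters were in 0 of the 29 windows, against 8.3% and 8.56% of all windows. These matches describe letters in a window and say nothing of binding.

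Under IFN-gamma the 29 genes did not move as a block. Of 28 tested, 5 rose (Hmgcs1, Hsd17b7, Acaca, Scd1 and Abca1), 7 fell (Insig1, Mvk, Pmvk, Fdps, Cyp51, Elovl6 and Stard4) and 16 were not called. These 12 calls make 42.9% of the tested members, beside 44.4% of the 17021 genes tested in all. Rises made 17.9% of members, beside 23.4% of all tested genes, and falls made 25% of members, beside 20.9%. Where either group reached 5 FPKM, 11 of 27 members (40.7%) were called, beside 57.1% of 9792 genes. Only 4 members changed at least 2-fold with a call, 14.3% of them beside 18.6% of all tested genes: Hsd17b7, Abca1 and Acaca upward and Pmvk downward. The median log2 ratio of the members was 0.039, beside 0.036 for all tested genes. The median size of the log2 ratio, whatever its sign, was 0.32 for members and 0.60 for all tested genes. Summed over the 29 genes, expression was 1874 FPKM in treated cells and 1895 FPKM in untreated cells. Between bulk cultures, fewer cells expressing a gene and less of its RNA per cell cannot be told apart.

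**Figure D1:**
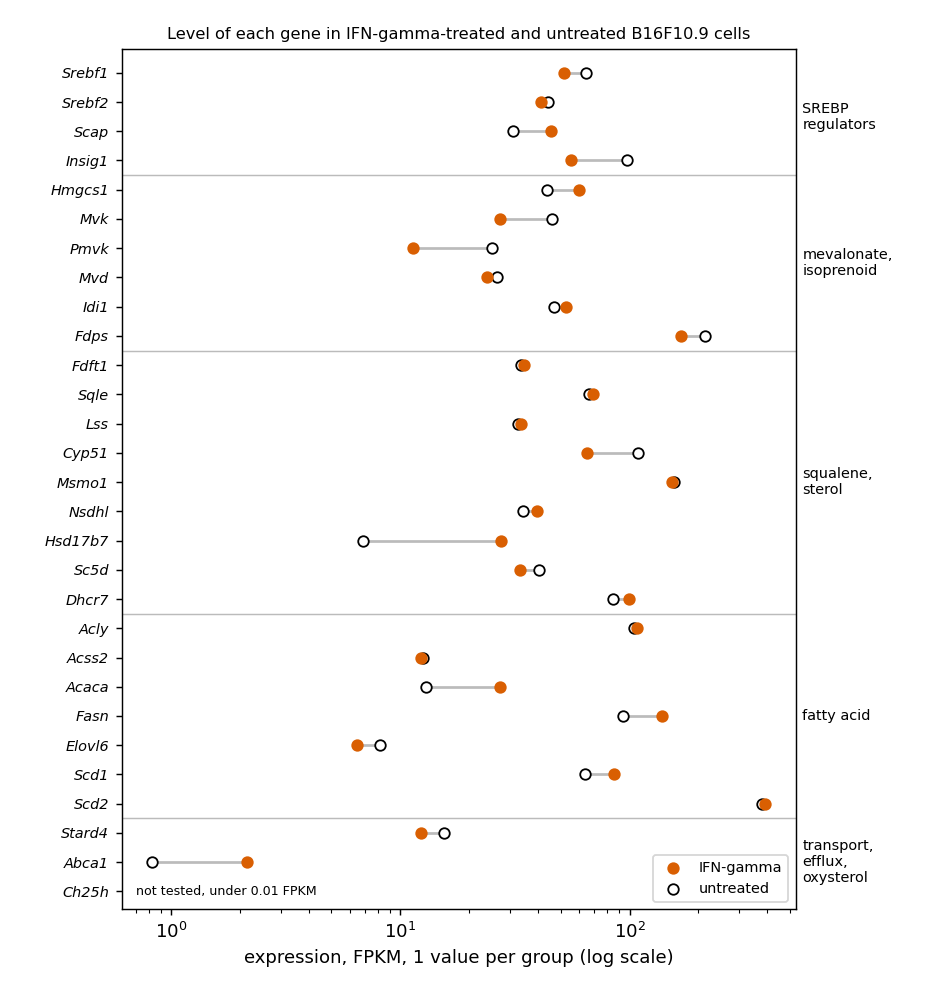
Expression in FPKM (log axis) of each gene in IFN-gamma-treated cells (filled) and untreated cells (open), 1 value per group with no error available, in order of pathway step. Scd2 has the highest level in both groups at 390.2 and 379 FPKM, Hsd17b7 and Abca1 show the widest gaps, and Ch25h is off the axis.

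Of the 4 SREBP regulators, only Insig1 was called, 25% beside 44.4% of all tested genes. Insig1, which retains the Scap-SREBP complex in the endoplasmic reticulum and is itself a classical SREBP target, stood at 55.4 FPKM in treated cells and 98.0 FPKM in untreated cells. It was thus 1.77-fold lower under IFN-gamma, a log2 ratio of -0.82. Its relative Insig2 had 98.3 FPKM in treated cells and 107.5 FPKM in untreated cells and was not called. Insig1 thus had 0.563 times the FPKM of Insig2 in treated cells and 0.911 times in untreated cells. Srebf2, the main activator of cholesterol genes, had 40.9 FPKM in treated cells and 44.2 FPKM in untreated cells. The microRNA gene Mir33, which lies in an intron of Srebf2, was not tested. It was listed at 0 in both groups, which does not show that its microRNA was absent. Srebf1, the main activator of fatty acid genes, had 51.9 FPKM in treated cells and 64.5 FPKM in untreated cells, and Scap, the escort, had 45.5 FPKM in treated cells and 30.9 FPKM in untreated cells. None of these 3 genes was called. Log2 ratios were 0.56 for Scap and -0.31 for Srebf1, and the authors' deposited table lists their q as 0.177 and 0.264. Scap, Srebf1 and Srebf2 share their loci with other genes. Scap and Srebf1 also overlap exons of an antisense gene, whose fragments this unstranded library type cannot separate. The antisense gene at Scap had 3.22 FPKM in treated cells and 1.98 FPKM in untreated cells. Rai1, the antisense gene at Srebf1, had 14.3 FPKM in treated cells and 18.0 FPKM in untreated cells.

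The members that act from acetyl-CoA to farnesyl diphosphate went both ways, with 1 of 6 higher and 3 lower. These calls made 66.7% of the 6, beside 44.4% of all tested genes. Acat2, which starts the route, is not among them and is given below. Hmgcs1, the cytosolic HMG-CoA synthase near the head of the route, rose to 59.9 FPKM in treated cells, against 43.5 FPKM in untreated cells (1.38-fold). The 2 kinases that follow on mevalonate both fell. Mvk, mevalonate kinase, had 27.3 FPKM in treated cells and 46.1 FPKM in untreated cells, 1.69-fold lower. Pmvk, phosphomevalonate kinase, had 11.3 FPKM in treated cells and 25.2 FPKM in untreated cells, 2.23-fold lower. Pmvk had the largest fall of all 28 tested members (log2 ratio -1.16, and -0.87 with the length trend removed). Mvd, the decarboxylase that makes isopentenyl diphosphate, had 23.8 FPKM in treated cells and 26.5 FPKM in untreated cells. The authors' deposited table lists its q as 0.957 and places it in 1 locus with 182 other genes. Idi1, the isomerase of the isoprene units, was not called at 52.8 FPKM in treated cells and 46.6 FPKM in untreated cells. Fdps, which joins these units to farnesyl diphosphate, was the most abundant enzyme of this stretch at 168 FPKM in treated cells and 214 FPKM in untreated cells. It fell 1.28-fold, and its log2 ratio was -0.35 as measured but -0.065 once the length trend was taken out. The 6 genes summed to 343 FPKM in treated cells and 402 FPKM in untreated cells.

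The members that act from farnesyl diphosphate to cholesterol were mostly not called: 1 of 9 rose, 1 fell and 7 were not called. The calls made 22.2% of the 9, beside 44.4% of all tested genes. The exception upward was Hsd17b7, a 3-ketosteroid reductase that acts in the removal of the methyl groups at carbon 4 of the sterol and also reduces oestrone. Hsd17b7 stood at 27.5 FPKM in treated cells and 6.86 FPKM in untreated cells, 4.02-fold higher (log2 ratio 2.01). This was the largest change of all 28 tested members, and with the length trend removed the log2 ratio was still 1.74. In the ranking of tested genes by level it stood at the 77.8th percentile in treated cells and the 53.4th in untreated cells. The gene lies on chromosome 1 (169949535 to 169969241, minus strand, GRCm38) and alone in its locus. The other 2 members of the same demethylation steps were not called. Msmo1, the methyl oxidase, had 153 FPKM in treated cells and 156 FPKM in untreated cells, and Nsdhl, the decarboxylating dehydrogenase, had 39.3 FPKM in treated cells and 34.4 FPKM in untreated cells. Cyp51, the demethylase that acts on lanosterol earlier in the route, fell to 65.5 FPKM in treated cells, against 109 FPKM in untreated cells (1.66-fold lower). The exons of Cyp51 overlap those of the antisense gene Akap9, which rose to 17.5 FPKM in treated cells, against 4.27 FPKM in untreated cells.

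The members on either side of these steps were not called. The sterol enzyme genes Ebp and Lbr are not among the members. Both were called, Ebp higher and Lbr lower, and are given below. Fdft1, squalene synthase, had 34.7 FPKM in treated cells and 33.6 FPKM in untreated cells. Its exons overlap those of the antisense gene Ctsb, a lysosomal cathepsin gene that rose to 547 FPKM in treated cells, against 153 FPKM in untreated cells. Sqle, the squalene epoxidase and a rate-controlling enzyme, had 69.3 FPKM in treated cells and 66.3 FPKM in untreated cells. Lss, which closes the rings to lanosterol, had 33.7 FPKM in treated cells and 32.6 FPKM in untreated cells. Of the last enzymes, Sc5d, a desaturase, had 33.3 FPKM in treated cells and 40.1 FPKM in untreated cells, and the authors' deposited table puts it close to the threshold (q = 0.067). Dhcr7, which makes cholesterol from its direct precursor, had 99.7 FPKM in treated cells and 84.7 FPKM in untreated cells. The 9 genes summed to 556 FPKM in treated cells and 564 FPKM in untreated cells.

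**Figure D2:**
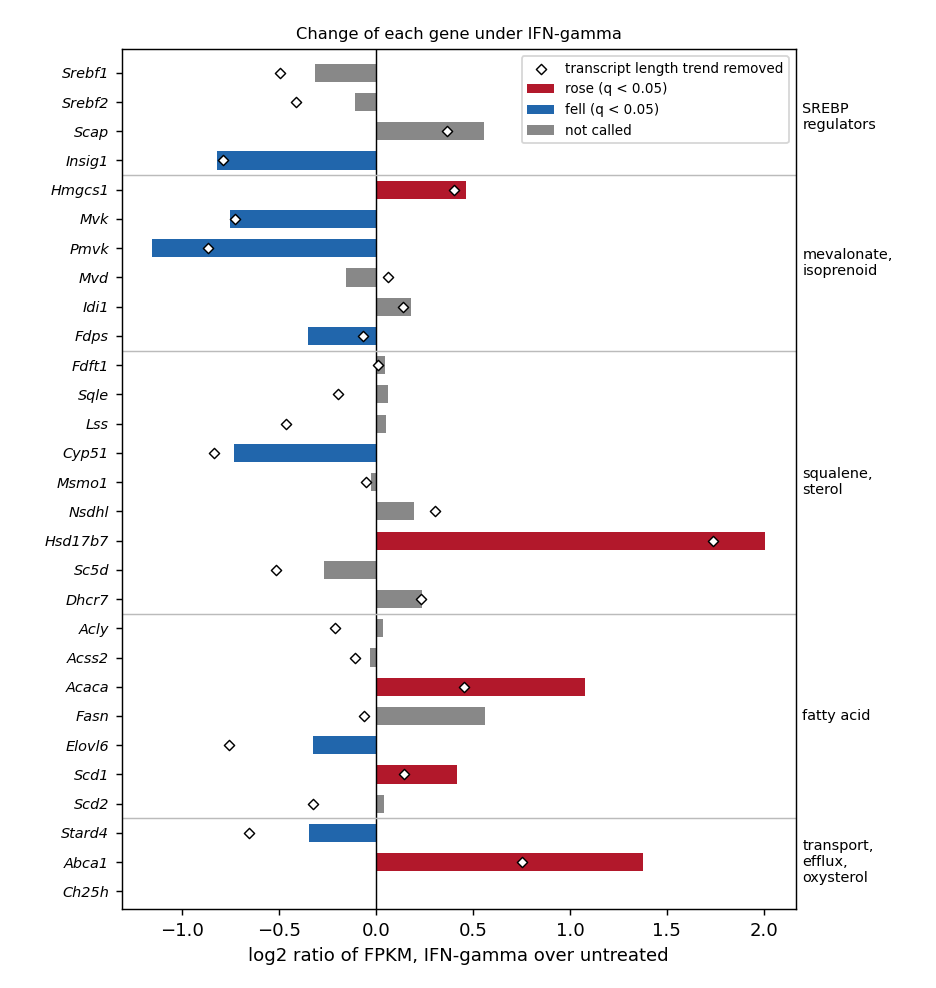
Log2 ratio of FPKM (IFN-gamma over untreated) of each tested gene by pathway step, with bars coloured by the call at q under 0.05 and open diamonds for the ratio with the transcript length trend removed. Hsd17b7 at 2.01 and Pmvk at -1.16 are the extremes, and the diamonds of Acaca, Fasn and Abca1, whose transcripts measure 9513 nt or more, lie nearer to 0 than their bars.

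In fatty acid synthesis 2 of 7 members rose and 1 fell, 42.9% called and so near the 44.4% of all tested genes. Acaca, acetyl-CoA carboxylase alpha, the enzyme that commits carbon to fatty acids, rose 2.11-fold to 27.3 FPKM in treated cells, against 12.9 FPKM in untreated cells. Its longest transcript measures 9513 nt, and its log2 ratio was 1.08, or 0.45 with that trend removed. Fasn, the synthase itself, had 138 FPKM in treated cells and 93.8 FPKM in untreated cells. It was not called (q = 0.13 in the authors' deposited table), and its log2 ratio was 0.56, or -0.063 with that trend removed. The suppliers of acetyl-CoA were not called either: Acly, which cuts citrate, had 108 FPKM in treated cells and 105 FPKM in untreated cells. Acss2, which activates acetate, had 12.3 FPKM in treated cells and 12.5 FPKM in untreated cells. Elovl6, which lengthens palmitate, fell 1.25-fold to 6.49 FPKM in treated cells, against 8.14 FPKM in untreated cells. Its log2 ratio was -0.33, or -0.76 with that trend removed.

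The stearoyl-CoA desaturases, which make monounsaturated fatty acids, both lie on chromosome 19. Scd1 rose 1.34-fold to 85.3 FPKM in treated cells, against 63.9 FPKM in untreated cells, which is 0.42 on the log2 scale, or 0.15 with that trend removed. Scd2 was the most abundant of the 29 genes, at 390.2 FPKM in treated cells and 379 FPKM in untreated cells, and was not called. It made 82.1% of the summed FPKM of the pair in treated cells and 85.6% in untreated cells. The Scd genes are related in sequence, so fragments could be divided between them. Summed over the 7 genes, expression was 767 FPKM in treated cells and 675 FPKM in untreated cells.

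The transport and efflux genes took opposite directions. Abca1, the pump that loads cholesterol onto apolipoproteins and a classical LXR target, rose 2.59-fold at a low level: it had 2.14 FPKM in treated cells and 0.826 FPKM in untreated cells. On the log2 scale this was 1.38, or 0.75 with that trend removed and 0.78 with 1 FPKM added to both groups. Stard4, a carrier of sterol between membranes and an SREBP target, fell 1.27-fold to 12.2 FPKM in treated cells, against 15.6 FPKM in untreated cells. The authors' deposited table lists its q as 0.0327, and the log2 ratio was -0.35, or -0.66 with that trend removed. Ch25h, which makes an oxysterol that blocks SREBP activation and which interferons induce in macrophages, was not tested. It was listed at 0.00925 FPKM in treated cells and at 0 in untreated cells, so its transcript was at or near 0 in both groups.

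The authors' test did not weigh equal changes equally. The smallest change that was called was that of Elovl6, a log2 ratio of 0.33 in size, while the largest that was not called was that of Fasn, 0.56 in size. Their test score per unit of log2 ratio, which is low where the test attached a wide error to the change, had a median of 3.94 over the 18 tested members alone in their locus and 1.85 over the 10 that share one. Over all tested genes the median was 2.71. The score per unit was 0.29 for Mvd, 0.85 for Fdft1 and 1.66 for Scap, which share their loci. It was 1.82 for Fasn, which is alone in its locus. Of the members alone in their locus 10 of 18 were called, and of those sharing a locus 2 of 10, Fdps and Acaca. The same split was not counted over all tested genes, so it cannot be read as particular to the members.

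**Figure D3:**
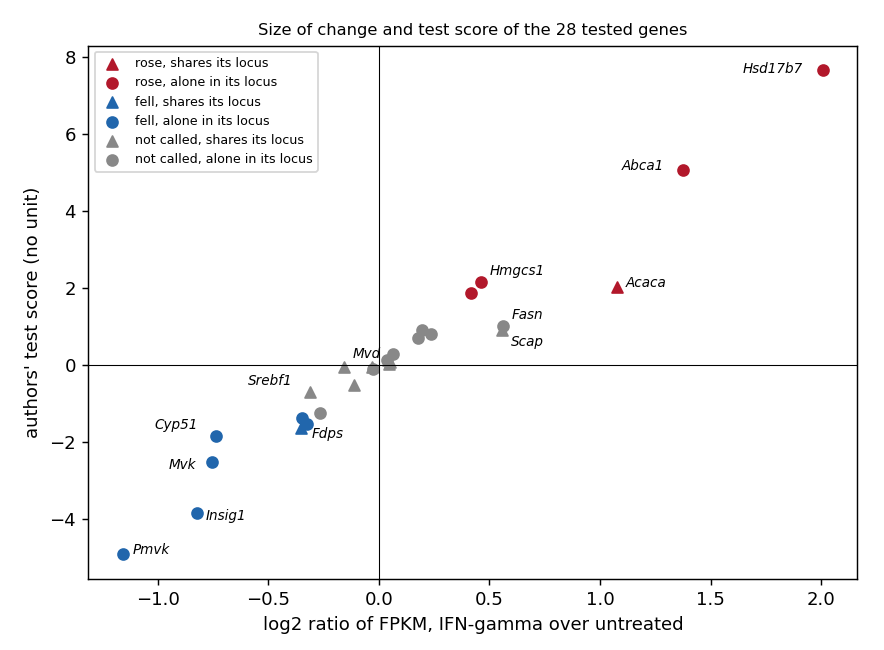
Test score in the authors' deposited table against log2 ratio of FPKM (IFN-gamma over untreated) for the 28 tested genes, with triangles for genes that share their locus with another gene. Acaca, Scap and Fasn have low scores for the size of their ratios, at 1.88, 1.66 and 1.82 score units per log2 unit.

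Genes of the same pathways outside the 29 were counted from lists drawn up by function. Of 6 other tested cholesterol synthesis genes 1 rose and 2 fell, 50% called beside the 44.4% of all tested genes. Ebp, a sterol isomerase, rose to 126 FPKM in treated cells, against 79.4 FPKM in untreated cells. Acat2, which starts the route, fell to 30.1 FPKM in treated cells, against 43.3 FPKM in untreated cells, and Lbr, a sterol reductase of the nuclear envelope, fell to 13.6 FPKM in treated cells, against 27.0 FPKM in untreated cells. Of 14 genes of SREBP processing and sterol sensing 4 rose and 2 fell, 42.9% called and so near the share of all tested genes. Mylip, an LXR target that degrades lipoprotein receptors, rose to 34.3 FPKM in treated cells, against 11.5 FPKM in untreated cells. Nr1h2, which encodes an LXR receptor, rose to 75.2 FPKM in treated cells, against 44.0 FPKM in untreated cells. Nr1h3, which encodes the other LXR receptor, had 0.172 FPKM in treated cells and 0.269 FPKM in untreated cells and was not called. Whether LXR activity changed was not tested. Tmem97, a sterol-responsive membrane protein, fell to 44.0 FPKM in treated cells, against 107.5 FPKM in untreated cells. Mbtps1, the protease that first cuts SREBP, and Rnf139 also rose, with log2 ratios of 0.45 and 0.61, or 0.24 and 0.40 with that trend removed.

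Of 13 tested genes of sterol uptake, storage and efflux 7 rose and 3 fell, 76.9% called beside the 44.4% of all tested genes, with a median log2 ratio of 0.54. Nceh1, a cholesteryl ester hydrolase, rose to 65.3 FPKM in treated cells, against 15.9 FPKM in untreated cells. Npc1, which carries cholesterol out of lysosomes, rose to 13.7 FPKM in treated cells, against 6.96 FPKM in untreated cells. Lrp1, Abca7 and Hsd3b7 rose with log2 ratios of 1.67, 1.13 and 0.84, and Stard3 fell with -0.83. With the length trend removed the ratios of Lrp1, Abca7, Hsd3b7 and Npc1 were 1.05, 0.62, 0.52 and 0.56. Of 29 further tested genes of fatty acid synthesis, elongation and desaturation 12 rose and 6 fell, 62.1% called beside the same 44.4%. Of all tested genes that reached 5 FPKM in either group, 57.1% were called. At that level 62 genes of all the other lists together were tested, of which 22 rose and 15 fell. Acacb, the mitochondrial sister of Acaca, rose to 13.1 FPKM in treated cells, against 1.71 FPKM in untreated cells, a log2 ratio of 2.94, or 2.31 with that trend removed. Acaca had 2.08 times the FPKM of Acacb in treated cells and 7.56 times in untreated cells. Fads2, a desaturase, rose to 147 FPKM in treated cells, against 66.1 FPKM in untreated cells, and Acsl5, which activates fatty acids, to 106 FPKM in treated cells, against 40.3 FPKM in untreated cells. Mlxip, a glucose-sensing transcription factor, rose by 1.56 on the log2 scale (1.04 with that trend removed). Hacd1, an enzyme of elongation listed as Ptpla, and Mcat, of mitochondrial fatty acid synthesis, fell with log2 ratios of -1.24 and -1.22.

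**Figure D4:**
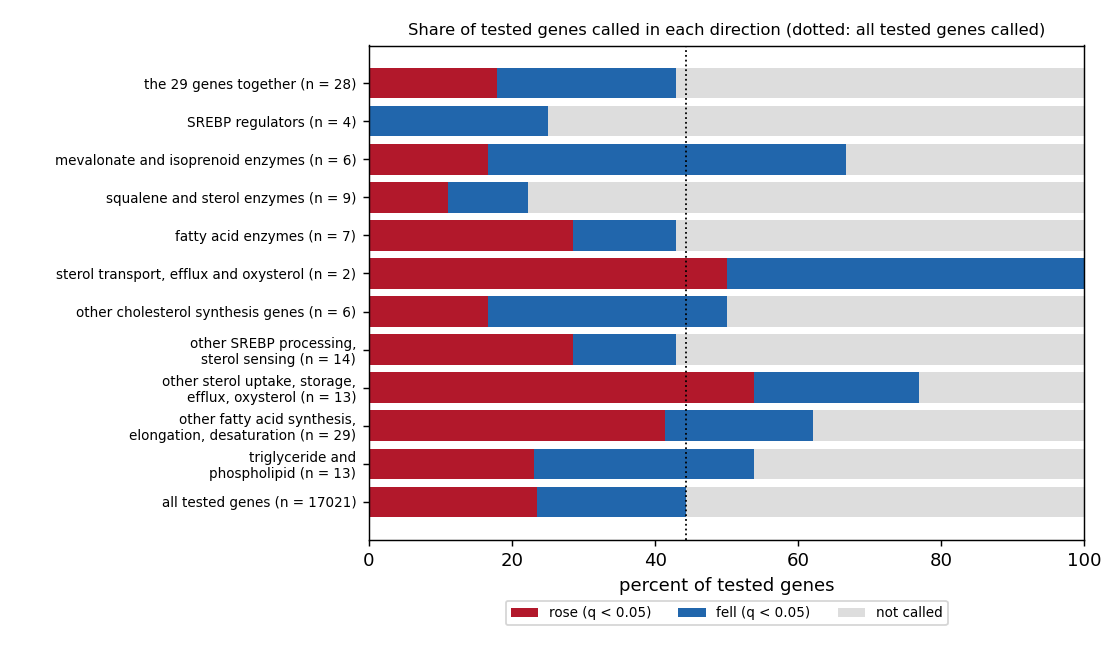
Percent of tested genes that rose (red), fell (blue) or were not called (grey) under IFN-gamma, for the 29 genes together, for each pathway step, for the other lists and for all 17021 tested genes, with n tested in brackets. The 29 genes together have 42.9% called, near the dotted line at 44.4%, and the shares of single steps rest on 2 to 9 genes.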

How the data were processed

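The 6 RNA-seq libraries (3 IFN-gamma, 3 untreated) were made with an Illumina TruSeq RNA V2 kit, which does not mark strand, per the labels' protocols. Cufflinks 2.2.1, TopHat2 2.0.11, Cuffdiff and the build GRCm38 are named per the submitters' processing notes. Their annotation, filters and settings are not stated in these sources. The deposited table holds FPKM values made by the authors, 1 per group over the 3 libraries. It also gives a q-value, p-value and test score by the authors. Both deposited sheets hold a log2 ratio by the authors; the shorter one adds their linear fold and gives the same FPKM for all of its 6953 genes. The deposited log2 ratio runs out of range where a group is near 0. It was recomputed from FPKM with no pseudocount, which does not remove such values. Over all tested genes the recomputed ratio ran from -923 to 424, and over the members from -1.16 to 2.01. The full table's title line speaks of infected cells; the sample cells (IFN, B16) were followed.

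No value per library was used, so the library fits planned for such values were not run and no spread could be given. The labels do not say whether the libraries came from separate cultures beyond seeding in triplicate, so the spread behind the q-values may be technical. Depth is unknown: of 1348 low values (FPKM times length), 23.6% were whole multiples, to within 0.1, of a step set at the 5th percentile, so whole reads were not recovered. A gene was called at an authors' q below 0.05, over 17021 genes tested. Of tested genes, 4545 share the smallest p of 5e-05, so calls are not ranked by p. Transcript length was that of the longest transcript the table lists per gene in GENCODE M21 (GRCm38), found for 98.9% of tested genes. The length trend was the running median of log2 ratios over 1001 tested genes of like length, tested on simulated data. Fragments are divided among the genes of a locus, which 48.2% of tested genes share with others. Of the members, 12 overlap exons of another gene, 10 of them an antisense gene.

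The members and lists were chosen with earlier results of these data known. Every member is described. Of the other lists, those named were called and reached 1 FPKM in either group, at most 6 per list by size of ratio. Insig2 is named beside Insig1, and Nr1h3 beside Nr1h2, outside this rule. Older symbols were matched by Ensembl identifier. Pathway genes outside these lists were not analysed here. Some genes that the naming rule covers are not reported here. Alternatives were stricter calls, filters on low values, pseudocounts, centring and removal of the length trend. Python 3.11.15, pandas 2.3.3 and matplotlib 3.10.9 were used.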

Additional observations from a re-analysis of the deposited data

How the results depend on the processing

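No paired analysis was possible because the table holds 1 value per group and no value per library, and for the same reason no library could be left out. Of the 28 tested members, 0 called log2 ratios changed sign with a pseudocount of 0.1 or 1 FPKM, centring on the median of all tested genes of at least 1 FPKM (0.05), or removal of the length trend. The pseudocounts and the centring moved 2 of these values by at least 0.1, both with the pseudocount of 1 (Abca1 to 0.78 and Hsd17b7 to 1.86), and removal of the length trend moved 20 of the 28, the cause of which was not tested. The median of the members was 0.039, and -0.089 with the length trend removed. Calls at q under 0.01 in the authors' deposited table left 4 members lower, and 1 called transport gene. Calls that also needed a 1.5-fold change left 3 members higher and 4 lower, with 2 called mevalonate genes, 1 called fatty acid gene and 1 called transport gene. A 2-fold change left 3 higher and 1 lower, with 0 called regulators and 1 called gene in each other step, and 10 higher and 4 lower of the other pathway genes (27 and 17 without it). At 5 FPKM or more in either group 1 called transport gene was left. Without genes that share a locus, 17 of the other pathway genes were higher. All other counts lay within 1.5 times. Values of genes that share a locus depend on how fragments were divided, and small changes cannot be judged without a spread between libraries.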

Other observations

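Genes that make and break down triglycerides and phospholipids, several of them linked to SREBP1, also went both ways. Of 13 tested, 3 rose, 4 fell and 6 were not called (53.8% called, beside 44.4% of all tested genes), with a median log2 ratio of -0.21. The largest change was that of Pnpla2, the lipase that opens the breakdown of stored triglyceride, at 66.0 FPKM in IFN-gamma-treated cells and 11.2 FPKM in untreated cells. Its log2 ratio was 2.56, and 2.60 with the length trend removed. The 4 that fell were Agpat3, Agpat2, Dgat1 and Pcyt2. Agpat3, an acyltransferase of glycerolipid synthesis, had 57.6 FPKM in treated cells and 92.3 FPKM in untreated cells, and Agpat2 had 25.5 FPKM in treated cells and 38.6 FPKM in untreated cells. Dgat1, which makes triglyceride, had 35.4 FPKM in treated cells and 49.1 FPKM in untreated cells. With the length trend removed the log2 ratios of Agpat3, Agpat2 and Dgat1 were -1.12, -0.39 and -0.30, beside -0.68, -0.60 and -0.47 as measured. Pcyt2, of phosphatidylethanolamine synthesis, fell to 51.0 FPKM in treated cells, against 78.0 FPKM in untreated cells. Lpin1 rose with a log2 ratio of 0.51, which came to 0.095 with the length trend removed.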
